A study of Mus musculus with 58 samples.

Results

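The genes described here encode the collagens, laminins, nidogens, fibrillins and fibulins of the extracellular matrix, and the enzymes that crosslink or cut it. They were taken from a table of ribosome-bound mRNA in mouse fat cells by their symbols, whatever their values: every gene named as a numbered collagen chain (Col), a laminin chain (Lama, Lamb, Lamc), Nid1 or Nid2, Fbn1 or Fbn2, a fibulin (Fbln), or a member of the Adamts, Mmp, Timp or Lox families. The rule found 75 of the 11603 genes in the table. Among the 75, Col4a3bp carries a collagen name but encodes a ceramide transfer protein, which left 74 matrix genes. Its level changed by -0.25 ± 0.08 log2 units with warming in beige and -0.03 ± 0.07 in brown, and it is not described further. All 75 passed the filter on low values, as did every gene in the table. The inhibitors Timp1 and Timp3 were not analysed here.

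The 22 mRNA libraries came from C57BL/6J mice that carry NuTRAP, a GFP tag on the ribosomes of the cells in which a chosen Cre has acted, so that an antibody against GFP pulls down those ribosomes with their mRNA (TRAP). The labels name an Ucp1-NuTRAP line (Cre driven by a brown and beige adipocyte gene) and an Adipoq-NuTRAP line (Cre driven by a gene of all adipocytes), but not the line of each library, so line and fat type cannot be told apart. Interscapular brown fat was taken after 1 week at 4 °C (cold brown, n = 5), or after that week and 4 further weeks at 30 °C (warm brown, n = 5). Inguinal white fat was taken after the week in the cold (cold beige, n = 4) or after the weeks of warming that followed it (warm beige, n = 3), and inguinal fat of mice born and always kept at 30 °C gave the warm white libraries (n = 5). Age and sex are not given in the labels used here, and the descriptions call each library a biological replicate without saying which animals gave more than 1, so p-values measure the spread between these libraries. The series asks how the identity of brown and beige cells changes when cold-exposed mice are warmed, and for the matrix genes this gave 5 comparisons of groups: warming in each depot, beige with brown at each temperature, and warm beige with warm white. The difference between the warming effects of the depots was tested as well.

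Matrix outside the cell comes in several forms. Fibrillar collagens form the ropes of connective tissue, while laminins, type IV collagen and nidogens form the thin basement membrane that surrounds every adipocyte. Lysyl oxidases tie collagen and elastin chains together, metalloproteinases and ADAMTS enzymes cut matrix proteins, and TIMPs block the metalloproteinases. Adipocytes make basement membrane, and fibroblasts and preadipocytes are known as the main makers of fibrillar collagen in fat.

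The libraries were checked against their labels with Ucp1, the uncoupling protein of thermogenic fat, and Adipoq, the adipocyte hormone adiponectin. Ucp1 stood at 12.15 ± 0.28 log2 CPM (SD) in cold brown, 8.84 ± 0.32 in warm brown, 11.34 ± 0.25 in cold beige, 1.03 ± 0.59 in warm beige and -2.82 ± 1.72 in warm white, and Adipoq had group means from 8.56 to 10.11. CPM are reads scaled to a fixed library total, the values were deposited as log2 CPM, and a difference of 1 is a 2-fold change. Gene length was not corrected for, so levels are compared between groups for a gene and never between genes. The values also part the libraries into a set of 10 and a set of 12, each with libraries of all 5 groups. These are called set 1 and set 2, and the values hold almost no mean difference between them (largest coefficient 0.005 on a gene). Set 1 holds 1 warm beige library, so its warm beige values are given below as values with no test. Total depth is unknown.

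Markers of other cell types were measured in every group. Their counts below stand beside these shares of all genes. With warming 36.0% rose and 36.9% fell in beige, and 41.2% and 30.1% in brown. The change was more positive in beige for 14.8% and in brown for 32.4%. Beige was higher than brown for 34.7% and lower for 27.2% in the cold, and for 35.3% and 40.1% in warm mice. Against warm white, warm beige was higher for 17% and lower for 22.4%. Summed over 15 measured fibroblast and preadipocyte markers of 16 listed, the level ran from 54.8 to 132 CPM in cold brown, 461 to 619 in warm brown, 949 to 1440 in cold beige, 4230 to 7350 in warm beige and 9040 to 10700 in warm white libraries. Gsn, which encodes gelsolin, made up 51.9% of that sum in cold brown and 79.1% to 91.9% in the other groups. Without Gsn and Dpt, left out after their values were seen, the other 13 markers summed to 20.1 to 76.1 CPM in cold brown, 49.3 to 72.4 in warm brown, 133 to 200 in cold beige, 282 to 393 in warm beige and 112 to 235 in warm white. On that sum warm beige was highest, and the brown groups overlapped. Gsn and Dpt are the 2 markers with a lower mean in warm beige than in warm white, so the order of those groups follows from leaving them out. Of these 15 genes, 9 rose with warming in beige and 10 in brown, all 15 were higher in cold beige than in cold brown and in warm beige than in warm brown, and 8 were higher and 2 lower in warm beige than in warm white. In the difference of the warming effects 1 was higher and 2 were lower. Dpp4 lay at the floor (-5 log2 CPM or less) in 1 cold brown and 1 warm white library, and no other fibroblast marker did so in any library.

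The 14 endothelial markers summed to 65.2 to 222 CPM in cold brown, 146 to 251 in warm brown, 195 to 432 in cold beige, 627 to 971 in warm beige and 61.1 to 95.9 in warm white. Cold brown libraries 1 and 5 stood apart at the top of their group, as they did for fibroblast and pericyte markers, and warm beige library 3 was the lowest of its group for endothelial, pericyte and macrophage markers. All 14 were higher in warm beige than in warm white, 10 rose with warming in beige and 5 in brown, 11 were higher in beige than in brown at each temperature, and 2 were higher in the difference of the warming effects. Emcn was at the floor in 2 warm white libraries. In all, 10 pericyte and smooth muscle markers summed to between 262 and 636 CPM in the cold groups and warm brown, 864 to 1310 in warm beige and 725 to 904 in warm white (64.1% of it Mcam), and 8 macrophage markers to at most 149 CPM in any library. With warming 6 pericyte markers rose and 2 fell in beige and 3 rose and 1 fell in brown, 1 was more positive in beige, 4 were higher and 1 lower in cold beige than in cold brown, 7 and 1 in warm beige than in warm brown, and 7 were higher than in warm white. Of the macrophage markers 3 rose in each depot, 1 was more positive in beige and 1 in brown, 8 were higher in cold beige than in cold brown, 6 in warm beige than in warm brown, and 1 was higher than in warm white; Itgam was at the floor in 2 cold brown libraries. Rises with warming were near or below the shares of all genes for macrophage markers (37.5% in each depot). In brown this held for endothelial (35.7%) and pericyte (30%) markers as well. The part of these cells in the results below was not tested, and in bulk libraries fewer cells of a type and less RNA per cell cannot be told apart.

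Further markers were counted the same way. The 8 adipocyte markers summed to 9000 to 11100 CPM in cold brown, warm brown and cold beige, 14100 to 18300 in warm beige and 19000 to 23200 in warm white. Of these, 4 rose and 1 fell in beige, 2 rose and 3 fell in brown, 2 were more positive in beige and 1 in brown, 3 were higher and 1 lower in cold beige than in cold brown, 4 and 1 in warm beige than in warm brown, and 5 were lower than in warm white. All 7 thermogenic markers fell in beige and 6 in brown, all 7 fell more in beige, none differed past the threshold between cold beige and cold brown, all 7 were lower in warm beige than in warm brown, and 6 were higher than in warm white. The 8 skeletal muscle markers summed to 158 to 251 CPM in cold brown, 19.9 to 37.2 in warm brown, 10.2 to 42.4 in cold beige, 18.6 to 194 in warm beige and 2.29 to 323 in warm white. Mb, myoglobin, made up 99.4% of the cold brown and 98.5% of the warm brown sum, and without it, again a choice made after its values were seen, the other 7 summed to 0.744 to 2.14 CPM in cold brown, 0.234 to 0.758 in warm brown, 2.13 to 17.3 in cold beige, 18 to 192 in warm beige and 2.17 to 323 in warm white. Tnnt3 was at the floor in all 5 cold brown libraries and Myh1 in 4. Of the 8, 7 rose and 1 fell in beige, 2 fell in brown, 4 were more positive in beige and 1 in brown, 2 were higher and 1 lower in cold beige than in cold brown, 7 and 1 in warm beige than in warm brown, and 2 were higher than in warm white. The 1 mesothelial marker measured fell in beige, was more negative there than in brown, and was lower in beige in the other 3 comparisons. Of 3 Schwann cell markers, 1 rose and 1 fell in beige, 1 rose in brown, 1 was more positive in brown, 1 was higher in cold beige than in cold brown, 1 was higher and 2 lower in warm beige than in warm brown, and 1 was higher than in warm white.

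**Figure D1:**
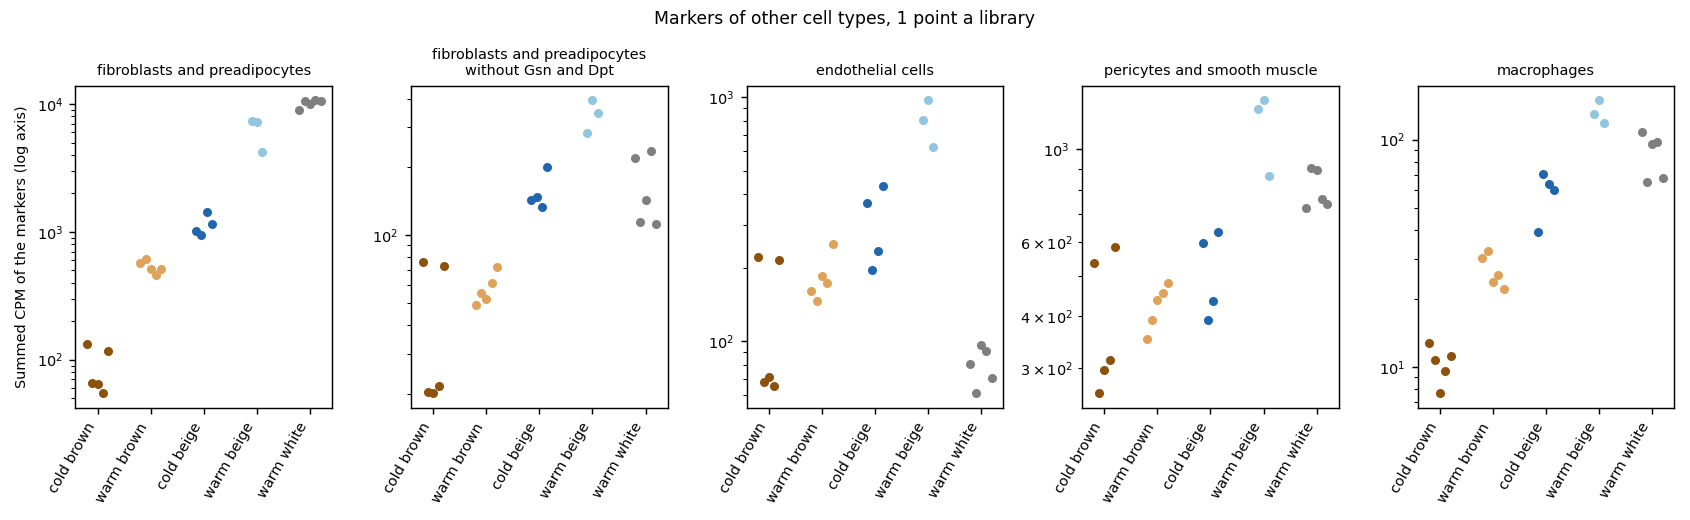
Summed CPM (log axis) of the markers of fibroblasts and preadipocytes (all, and without Gsn and Dpt), endothelial cells, pericytes and smooth muscle, and macrophages, with 1 point for each of the 22 libraries by group. The full fibroblast sum, mostly Gsn, is highest in warm white (9040 to 10700 CPM). Without Gsn and Dpt, the 2 markers with a lower mean in warm beige than in warm white, it is highest in warm beige (282 to 393 CPM). Endothelial markers are also highest in warm beige (627 to 971 CPM), and cold brown libraries 1 and 5 lie above the other cold brown libraries.

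Matrix transcripts rose with warming in both depots. In beige, 43 of the 75 members were higher and 8 lower at 30 °C than at 4 °C (57.3% and 10.7%, against 36.0% and 36.9% of all genes), with a median difference of 1.09 log2 units against 0.03 over all genes. In brown, 43 were higher and 8 lower (57.3% and 10.7%, against 41.2% and 30.1%), with a median of 0.88 against 0.13. Among the 74 matrix genes, 33 were higher with warming in both depots and 4 lower in both (Col10a1, Lamb3, Loxl1 and Mmp19). Col12a1 and Lox fell in beige and rose in brown, and 13 genes passed in neither depot. These joint patterns were not counted over all genes, so their counts have no share of all genes beside them. The warming effects themselves differed past the threshold for 24 members, with 14 more positive in beige (18.7%, against 14.8% of all genes) and 10 more positive in brown (13.3%, against 32.4%), so the share on the beige side was near that of all genes. That split depends on the scaling: after quantile normalization, which shifts the median of all genes by 0.21 in this comparison and by -0.14 in brown warming, 32 members were more positive in beige and 3 in brown, and 32 rose and 14 fell in brown. It was 29 and 8 with 5 CPM added before the logarithm, 19 and 7 with 1 CPM, and 10 and 14 without cold brown libraries 1 and 5. The split of all genes moved as well, from 1712 and 3765 to 3098 and 3139 after quantile normalization, where 3780 rose and 3815 fell in brown. Over all genes it was 2281 and 3639 with 5 CPM added, 2002 and 3737 with 1 CPM, and 1515 and 3596 without those cold brown libraries.

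The contrast between depots was larger. In the cold, 61 members were higher and 2 lower in beige than in brown (81.3% and 2.67%, against 34.7% and 27.2% of all genes), with a median of 2.01 log2 units against 0.05. In warm mice 59 were higher and 4 lower (78.7% and 5.33%, against 35.3% and 40.1%), with a median of 2.14 against -0.05. The 2 exceptions in the cold were Lamc3 and Adamtsl3, and those in warm mice were Col12a1, Lox, Adamtsl3 and Mmp24, the last of which was lost without any 1 of 5 libraries (adjusted p = 0.192 without warm beige library 3). Fibroblast markers were higher in beige in the same libraries (all 15 at both temperatures). Between warm beige and warm white, both from inguinal fat, 24 members were higher in beige and 21 lower (32% and 28%, against 17% and 22.4%), with a median of 0.12 against -0.04. Over the 5 groups, 34 members had their highest mean in warm beige, 29 in warm white, 5 in cold beige, 5 in warm brown and 2 in cold brown, and 49 had their lowest mean in cold brown. The groups with the highest and lowest mean were not counted over all genes, so this order cannot be called particular to the members.

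**Figure D2:**
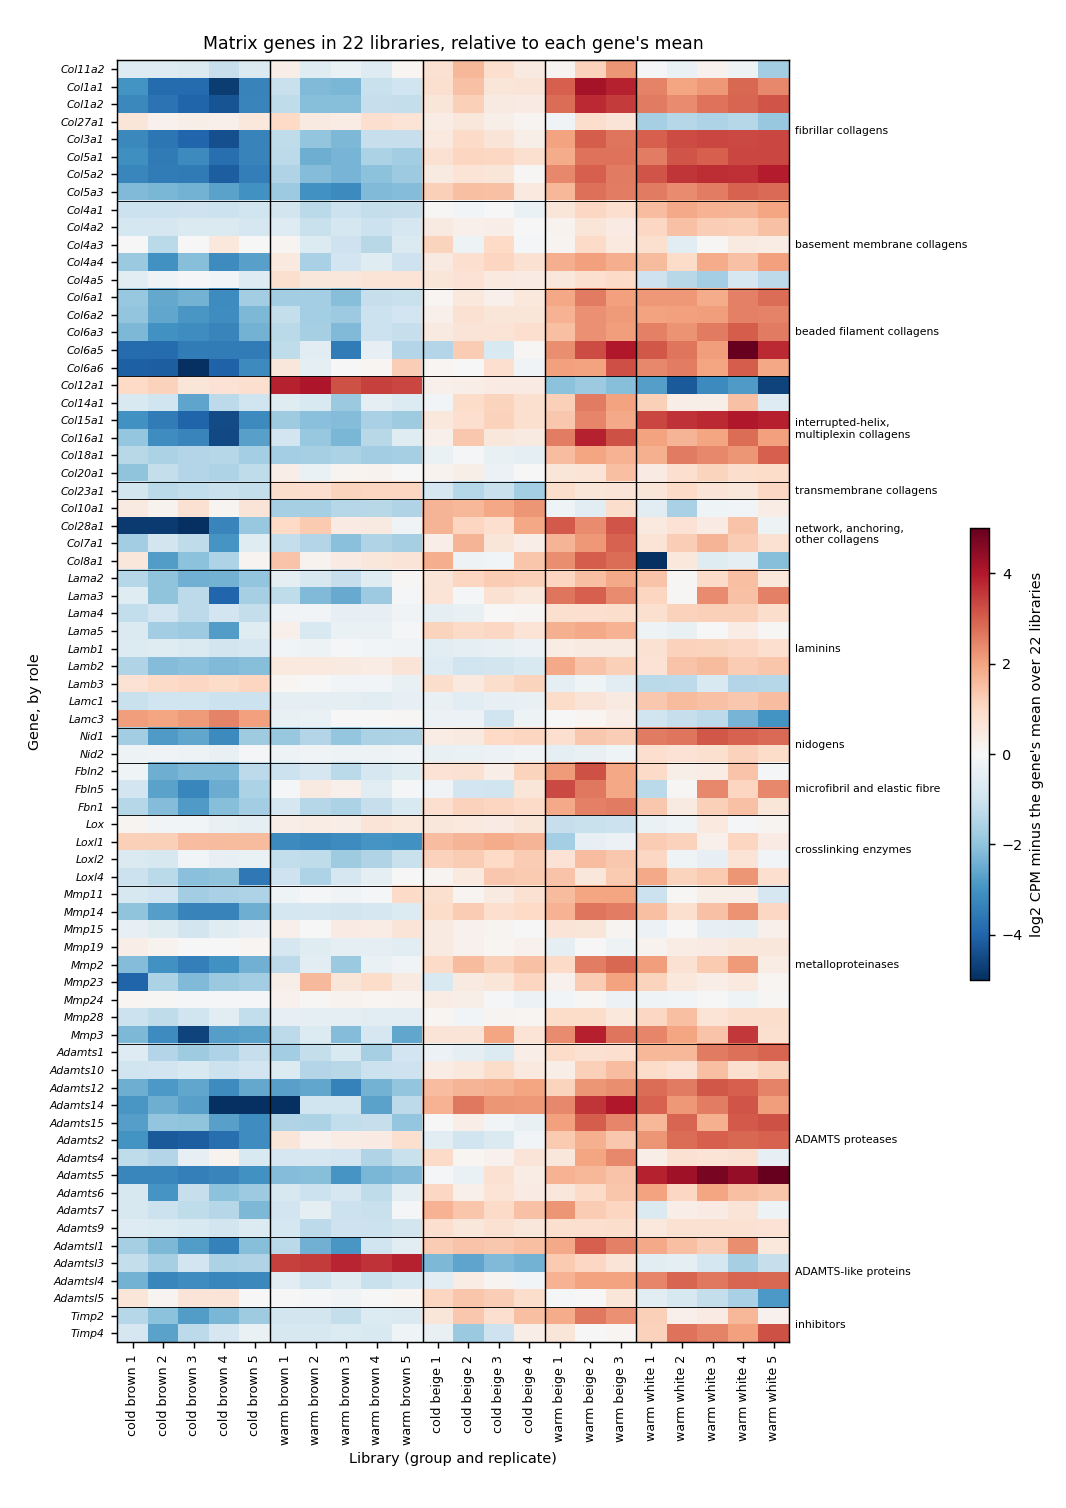
Log2 CPM of 73 matrix genes (rows, by role) in 22 libraries (columns, by group), minus the mean of each gene; red is above and blue below that mean, and the colours saturate at 5 log2 units either way. Most rows run from blue in cold brown to red in warm beige or warm white, while Col12a1 and Adamtsl3 are highest in warm brown and Lamc3 in cold brown.

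Fibrillar collagens rose with warming and differed widely between depots. Of 8 members, 6 rose with warming in beige (75%, against 36.0% of all genes) and 5 in brown (62.5%, against 41.2%). None fell, against 36.9% and 30.1% of all genes. At each temperature 7 were higher in beige than in brown (87.5%, against 34.7% in the cold and 35.3% in warm mice). Col1a1 (uc007kzn.2, chromosome 11, 94936224 to 94953042 in GRCm38.p6), which encodes the main chain of type I collagen, read 3.29, 2.46, 2.46, 1.56 and 2.94 log2 CPM in cold brown and 5.18, 4.09, 4.00, 5.19 and 5.29 in warm brown. It read 7.08, 7.76, 6.89 and 6.94 in cold beige, 9.29, 10.46 and 10.15 in warm beige and 8.78, 8.25, 8.47, 9.17 and 8.68 in warm white. The 5 groups did not overlap, and warm beige was the highest of them. Warming raised Col1a1 by 2.80 ± 0.37 (SE) in beige (limma adjusted p = 5.02e-07) and by 2.21 ± 0.30 in brown (adjusted p = 1.08e-06), and the difference between those effects was 0.59 ± 0.48 (adjusted p = 0.326). Cold beige exceeded cold brown by 4.63 ± 0.32.

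Its partner chain Col1a2 and the type III and V chains followed a similar gradient. Col1a2 changed by 2.68 ± 0.29 and 2.12 ± 0.24 with warming in beige and brown, Col5a1 by 1.51 ± 0.25 and 1.50 ± 0.21, and Col5a2 by 2.20 ± 0.21 and 1.60 ± 0.17. Col3a1, the type III chain, read 5.04, 4.63, 4.27, 3.87 and 4.93 in cold brown, 6.98, 6.28, 5.99, 7.11 and 7.09 in warm brown and 8.74, 9.22, 8.89 and 8.55 in cold beige. In warm beige it read 10.26, 11.27 and 10.92 and in warm white 11.24, 11.52, 11.61, 11.55 and 11.61, so that the top warm beige library reached the bottom of warm white while the other groups were apart. Against warm white the fibrillar chains split: Col1a1 was 1.30 ± 0.35 higher in warm beige (adjusted p = 0.00556), Col1a2 differed by 0.60 ± 0.28 (adjusted p = 0.0889), and Col5a2 was lower (-0.94 ± 0.20, adjusted p = 0.000705). The lower calls of Col3a1 (-0.69 ± 0.27) and Col5a1 (-0.64 ± 0.24) were lost without any 1 of 7 and any 1 of 4 libraries, warm white libraries among them. Without warm beige library 1 they had adjusted p = 0.274 and 0.27. Within set 2 alone Col1a1 gave 1.05 against warm white (adjusted p = 0.149), and within set 1 Col5a2 gave -0.97.

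Not every fibrillar chain moved with warming. Col27a1, a minor fibrillar collagen of cartilage, had means of 5.53 ± 0.18 in cold brown, 5.81 ± 0.26 in warm brown, 5.50 ± 0.18 in cold beige and 5.59 ± 0.56 in warm beige, with overlapping libraries, but 3.56 ± 0.19 in warm white. Every warm white library (3.26 to 3.73) lay below every other library. The difference from warm beige was 2.03 ± 0.18 (adjusted p = 1.8e-08), the opposite side from the type III and V chains. Col5a3, a rarer type V chain, rose in beige (1.16 ± 0.30, adjusted p = 0.0018) and changed by 0.03 ± 0.25 in brown (adjusted p = 0.916). That difference between depots (1.12 ± 0.40, adjusted p = 0.0232) was lost without any 1 of 3 libraries (adjusted p = 0.086 without warm beige library 2). Col11a2 passed in neither depot with warming.

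Start sites are shown for fibrillar genes that moved together and, for contrast, for a collagen that rose with warming in beige and not in brown. The 150 bases before an annotated start are printed from RefSeq (GRCm38.p6), 5′ to 3′ along the gene. For Col5a1 the window ends at 27886424, past the start of the gene's coordinates at 27886381, so its last bases lie inside those coordinates. Capitals mark 3 textbook promoter motifs on either strand. They are the CCAAT box, the GC box with the letters GGGCGG, and the TATA box with the letters TATAAA. Windows were at hand for 51 of the 75 members (56 windows).

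Col1a2 (chr6:4505468-4505617, plus strand): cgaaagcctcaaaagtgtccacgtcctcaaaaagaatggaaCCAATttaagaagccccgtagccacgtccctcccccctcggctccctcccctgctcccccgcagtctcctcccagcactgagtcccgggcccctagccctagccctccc

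Col3a1 (chr1:45311388-45311537, plus strand): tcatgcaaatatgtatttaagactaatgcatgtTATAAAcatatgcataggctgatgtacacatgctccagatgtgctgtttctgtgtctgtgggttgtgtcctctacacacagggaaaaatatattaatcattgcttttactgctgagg

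Col5a1 (chr2:27886275-27886424, plus strand): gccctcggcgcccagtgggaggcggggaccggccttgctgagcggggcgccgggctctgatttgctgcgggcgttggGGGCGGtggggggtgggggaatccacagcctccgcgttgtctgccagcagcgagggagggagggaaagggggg

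Col18a1, outer start (chr10:77166531-77166680, minus strand): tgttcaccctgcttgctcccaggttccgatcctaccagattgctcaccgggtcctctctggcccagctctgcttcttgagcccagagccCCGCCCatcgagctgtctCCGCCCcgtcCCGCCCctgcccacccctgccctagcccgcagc

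Col18a1, inner start (chr10:77113706-77113855, minus strand): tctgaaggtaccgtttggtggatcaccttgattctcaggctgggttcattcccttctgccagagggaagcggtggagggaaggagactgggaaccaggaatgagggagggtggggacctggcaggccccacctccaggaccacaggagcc

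In these letters Col1a2 holds a CCAAT box, Col3a1 a TATA box, Col5a1 a GC box, the outer Col18a1 start 3 GC boxes, and the inner start none of the 3. Over 150 bases, the CCAAT box occurs in 14.3% of member windows and 24.5% of all 32851 windows, the GC box in 55.4% and 28.6%, and the TATA box in 8.93% and 7.57%. No motif contains the letters of another, and a match is a description of the letters, not of a bound factor. The table gives Col18a1 as 1 row, so its 2 starts could not be told apart in the counts.

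The main chains of type IV collagen differed in how they changed. Col4a1 (uc012fzi.1, chromosome 8, 11198423 to 11312889) and Col4a2 (uc009kvc.3, chromosome 8, 11312805 to 11449287) encode the chains of the common basement membrane collagen, and lie head to head with overlapping starts in GRCm38.p6. Whether the reads were counted by strand is not stated, so reads from the overlap could fall to either gene. Col4a1 read 8.43, 8.40, 8.45, 8.42 and 8.49 in cold brown and 8.56, 8.16, 8.40, 8.28 and 8.35 in warm brown. It read 9.55, 9.37, 9.52 and 9.17 in cold beige, 10.09, 10.52 and 10.31 in warm beige and 11.03, 11.39, 11.22, 11.18 and 11.45 in warm white. The brown groups overlapped, and the 3 inguinal groups rose in steps without overlap.

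Col4a2 read 8.16, 8.17, 8.30, 8.29 and 8.17 in cold brown, 8.36, 7.90, 8.15, 7.96 and 8.17 in warm brown and 9.49, 9.27, 9.37 and 8.99 in cold beige. In warm beige it read 9.21, 9.62 and 9.44 and in warm white 10.06, 10.47, 10.27, 10.20 and 10.48. Here cold and warm beige overlapped, and only warm white stood above them. Col4a1 thus rose with warming in beige (0.90 ± 0.11, adjusted p = 2.62e-07) while Col4a2 gave 0.14 ± 0.13 (adjusted p = 0.308), and in brown they gave -0.09 ± 0.09 and -0.11 ± 0.10. The warming effects of the depots differed for Col4a1 (0.99 ± 0.15, adjusted p = 9.06e-06) and not past the threshold for Col4a2 (0.25 ± 0.16, adjusted p = 0.21); the difference between the 2 genes was not tested. After quantile normalization the beige change of Col4a2 passed (0.52, adjusted p = 0.000205), and within set 1 the Col4a1 difference was 1.00.

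Both chains were lower in warm beige than in warm white, with differences of -0.95 ± 0.11 for Col4a1 and -0.87 ± 0.12 for Col4a2. Among the rarer chains, Col4a5, found in kidney and other specialised basement membranes, moved the other way: it was 2.03 ± 0.16 higher in warm beige than in warm white (adjusted p = 3.12e-09), with means of 4.45 ± 0.19 and 2.42 ± 0.32. It rose in brown (1.00 ± 0.14, adjusted p = 1.62e-06) and gave 0.22 ± 0.17 in beige. Col4a4 rose in both depots (1.12 ± 0.39 and 1.84 ± 0.33), and Col4a3 passed in neither. Over the 5 chains, 2 rose in each depot (40%), near the share of all genes (36.0% in beige and 41.2% in brown). None fell, against 36.9% and 30.1% of all genes.

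All 5 measured chains of type VI collagen, the beaded filament next to the adipocyte basement membrane, passed as higher with warming in both depots and as higher in beige than in brown at each temperature. Of all genes, 36.0% rose with warming in beige and 41.2% in brown. Beige was higher than brown for 34.7% of all genes in the cold and 35.3% in warm mice. Col6a3 changed by 1.30 ± 0.26 in beige and 1.32 ± 0.21 in brown, Col6a2 by 1.51 ± 0.24 and 1.22 ± 0.20, and Col6a1 by 1.84 ± 0.28 and 0.78 ± 0.23. The depots differed for Col6a1 (1.06 ± 0.37, adjusted p = 0.0206). Col6a1 was highest within cold brown in libraries 1 and 5 (3.15 and 3.29, others 1.88 to 2.67), as were Col6a2 and Col6a3. These libraries had the most endothelial, fibroblast and pericyte marker RNA of their group. Without both, the difference between depots for Col6a1 was 0.71 (adjusted p = 0.0935). It was also lost without warm beige library 2 (adjusted p = 0.0791). Against warm white 4 of the 5 did not pass, and Col6a3 (-0.65 ± 0.25) lost its call without any 1 of 6 libraries (adjusted p = 0.227 without warm beige library 1).

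The 2 minor chains sat near the floor in cold brown. Col6a5 was at or below -5 log2 CPM in all 5 cold brown libraries, so its calls against that group rest on floor values and no fold change is given, and it had a mean of -3.55 ± 1.24 in warm brown, -2.33 ± 1.16 in cold beige, 1.09 ± 0.85 in warm beige and 1.24 ± 1.18 in warm white. Col6a6 rose by 4.55 ± 0.43 in brown and 2.24 ± 0.52 in beige. The larger brown change (-2.31 ± 0.67) turned to 0.42 when 1 CPM was added before the logarithm.

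Among 6 collagens with interrupted helices, 5 rose and 1 fell with warming in beige (83.3% and 16.7%, against 36.0% and 36.9% of all genes). In brown 4 rose (66.7%, against 41.2%). Col12a1 (uc009qus.2, chromosome 9, 79598987 to 79721141) binds to the surface of collagen fibrils and is known in tendon and muscle. It read 4.62, 4.79, 4.25, 4.33 and 4.47 in cold brown and 7.48, 7.65, 6.80, 7.05 and 6.98 in warm brown. It read 3.89, 3.95, 4.02 and 4.05 in cold beige, 1.58, 1.81 and 1.50 in warm beige and 0.88, -0.58, 0.45, 0.80 and -0.99 in warm white. No 2 groups overlapped: warm brown was highest and warm white lowest, and warming moved the depots apart in opposite directions. The change was 2.70 ± 0.26 in brown (adjusted p = 5.96e-09) and -2.35 ± 0.32 in beige (adjusted p = 8.6e-07), and the difference of -5.05 ± 0.42 (adjusted p = 1.74e-09) was the largest among the 75 members. Col12a1 was lower in warm beige than in warm brown (-5.56 ± 0.31). Fibroblast markers were higher there (15 of 15), and the part of other cells in the Col12a1 values was not tested.

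Col18a1 (uc007fvg.1, chromosome 10, 77052178 to 77166530), a basement membrane collagen whose end fragment is endostatin, read 4.71, 4.50, 4.61, 4.65 and 4.40 in cold brown and 4.37, 4.41, 4.50, 4.34 and 4.43 in warm brown. It read 5.77, 5.98, 5.72 and 5.60 in cold beige, 7.65, 8.07 and 7.84 in warm beige and 7.85, 8.68, 8.49, 8.31 and 9.06 in warm white. The brown groups overlapped, while every warm beige library lay above every cold beige library. Col18a1 rose by 2.09 ± 0.17 in beige (adjusted p = 3.15e-10) against -0.16 ± 0.14 in brown (adjusted p = 0.31), a difference of 2.25 ± 0.22 (adjusted p = 3.4e-08). Its closest relative, Col15a1, instead rose in both depots (1.07 ± 0.27 and 1.75 ± 0.23) and was lower in warm beige (6.41 ± 0.56) than in warm white (8.23 ± 0.26), a difference of -1.82 ± 0.26 (adjusted p = 1.07e-05).

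Of the other fibril-associated collagens, Col16a1 (2.54 ± 0.48 and 1.68 ± 0.40) and Col20a1 (0.89 ± 0.22 and 1.55 ± 0.18) rose with warming in beige and brown. Col14a1 rose in beige only past the threshold (1.26 ± 0.49), a call lost without any 1 of 3 libraries (adjusted p = 0.14 without warm beige library 2). Col23a1, a collagen held in the cell membrane, rose with warming without differing past the threshold between the depots: it rose by 1.99 ± 0.17 in beige and 2.16 ± 0.14 in brown, and cold beige differed from cold brown by -0.11 ± 0.15 (adjusted p = 0.534). Col10a1, known from cartilage, fell in both depots (-1.84 ± 0.38 and -1.96 ± 0.32). Col8a1, a network collagen of vessel walls, was 4.40 ± 0.97 higher in warm beige than in warm white (adjusted p = 0.000999), where single libraries spread widely (-1.60 ± 2.44), and within set 1 the difference was 5.25. The anchoring collagen Col7a1 rose in beige (1.54 ± 0.45, adjusted p = 0.00427) and gave -0.08 ± 0.37 in brown. Col28a1 was near the floor in cold brown, and its difference between depots (-3.10 ± 0.84) turned to 0.20 with 1 CPM added.

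**Figure D3:**
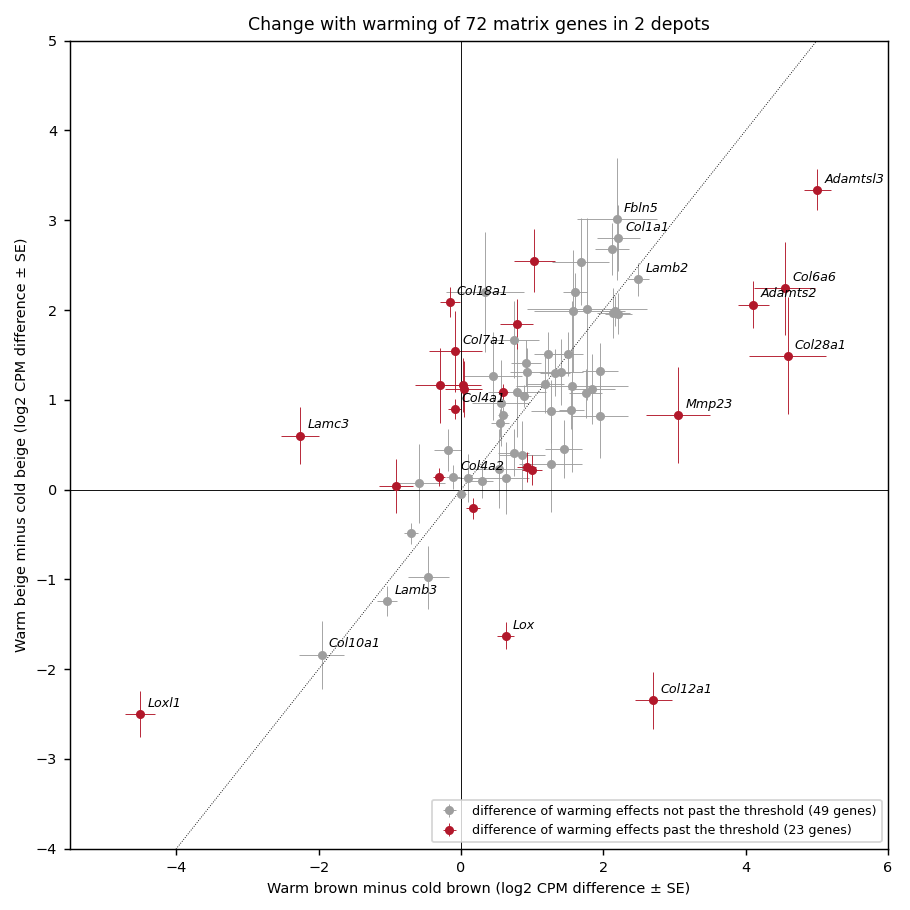
Difference of log2 CPM between warm and cold libraries in brown (x axis) and beige (y axis) for 72 matrix genes, with limma standard errors; red genes differed between the depots past the threshold, the dotted line marks equal change, and Col6a5 is left out because every cold brown library was at the floor. Most genes lie in the upper right quadrant, Col12a1 and Lox lie in the lower right, Lamc3 in the upper left, and Loxl1 in the lower left.

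Laminins are trimers of an alpha, a beta and a gamma chain. Of 10 measured chains, 7 rose and 1 fell with warming in beige (70% and 10%, against 36.0% and 36.9% of all genes). In brown 6 rose and 3 fell (60% and 30%, against 41.2% and 30.1%), so the falls there were near the share of all genes. The chains of common adipose laminins rose together: Lama4 by 1.04 ± 0.12 in beige and 0.88 ± 0.10 in brown, Lamb1 by 0.83 ± 0.09 and 0.59 ± 0.07, and Lamc1 by 1.09 ± 0.09 and 0.59 ± 0.07. Lamc1 rose more in beige (0.50 ± 0.11, adjusted p = 0.000869). Lamb1 (-0.56 ± 0.09) and Lamc1 (-0.79 ± 0.08) were lower in warm beige than in warm white, while Lama4 gave -0.20 ± 0.12 (adjusted p = 0.194). Within set 1 the Lamc1 difference was 0.22 and the Lamb1 contrast with warm white -0.49.

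Lamb2 (uc009rpr.2, chromosome 9, 108479847 to 108490530), the beta chain of vessel and synaptic basement membranes, was the laminin that rose most in both depots. It read 5.21, 4.55, 4.63, 4.51 and 4.59 in cold brown and 7.21, 7.18, 7.14, 7.08 and 7.34 in warm brown. It read 6.07, 5.72, 5.81 and 5.93 in cold beige, 8.62, 8.14 and 7.91 in warm beige and 7.45, 8.15, 8.30, 7.99 and 8.08 in warm white. Cold and warm libraries were apart in each depot. The rise was 2.34 ± 0.18 in beige (adjusted p = 7.66e-11) and 2.49 ± 0.15 in brown (adjusted p = 1.54e-12), and warm beige and warm white differed by 0.23 ± 0.17 (adjusted p = 0.3). Cold brown library 1, high for its group in endothelial, fibroblast and pericyte markers, was also high in Lamb2 (5.21, others 4.51 to 4.63). Without cold brown 1 and 5 the brown rise was 2.63.

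Lamc3 (uc008jef.1, chromosome 2, 31887281 to 31949083), a gamma chain known from retina and brain, had its highest level in cold brown. It read 6.25, 6.15, 6.28, 6.65 and 6.22 there and 3.81, 3.82, 4.19, 4.19 and 4.23 in warm brown. It read 3.87, 3.87, 3.18 and 3.92 in cold beige, 4.17, 4.28 and 4.49 in warm beige and 3.16, 3.03, 2.84, 1.85 and 1.18 in warm white. Cold brown lay above all other libraries and warm white below all others. Lamc3 fell with warming in brown (-2.26 ± 0.27, adjusted p = 9.92e-08), gave 0.60 ± 0.32 in beige (adjusted p = 0.0953), and the effects differed by 2.87 ± 0.42 (adjusted p = 6.7e-06). It was 1.90 ± 0.31 higher in warm beige than in warm white, with an adjusted p of 4.02e-05, and 2.03 higher within set 1.

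Lama3 and Lamb3, chains known from epithelia, moved in opposite directions in beige. With warming Lama3 rose there by 2.20 ± 0.67, while Lamb3 changed by -1.24 ± 0.17. Lamb3 fell in brown as well (-1.04 ± 0.14, adjusted p = 5.17e-07), and its means in cold brown and cold beige were 4.53 ± 0.14 and 4.43 ± 0.25 (adjusted p = 0.577). Lama2, the alpha chain of muscle and nerve, rose in brown (1.44 ± 0.26) and gave 0.45 ± 0.32 in beige (adjusted p = 0.209). Lama5 was 1.85 ± 0.33 higher in warm beige than in warm white (adjusted p = 0.000131).

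Nidogens link laminin to type IV collagen, and both were lower in warm beige than in warm white (against 22.4% of all genes). Nid1 (uc007pmg.2, chromosome 13, 13437602 to 13512275) read 4.39, 3.32, 3.54, 2.97 and 4.37 in cold brown and 4.25, 4.68, 4.19, 4.57 and 4.61 in warm brown. It read 6.51, 6.60, 7.13 and 7.23 in cold beige, 6.98, 7.47 and 7.38 in warm beige and 8.72, 8.81, 9.24, 9.08 and 8.98 in warm white. The groups of each depot overlapped between temperatures, and warm white stood above all others. Against warm white, warm beige differed by -1.69 ± 0.25 for Nid1 (adjusted p = 1.56e-05) and by -1.22 ± 0.09 for Nid2 (adjusted p = 3.6e-10).

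Nid1 differed between depots and Nid2 did not pass. Nid1 was 3.15 ± 0.23 higher in cold beige than in cold brown (adjusted p = 1.85e-10), whereas Nid2 had means of 5.48 ± 0.11, 5.48 ± 0.05, 5.41 ± 0.09 and 5.36 ± 0.10 in the brown and beige groups, in the order used for Nid1, and 6.58 ± 0.16 in warm white. Nid1 rose in brown by 0.74 ± 0.22 (adjusted p = 0.00429) and gave 0.41 ± 0.26 in beige. Cold brown libraries 1 and 5 were the highest of their group for Nid1 (4.39 and 4.37). Without them the brown rise was 1.18 and the difference between depots became -0.77 (adjusted p = 0.0172), against -0.33 ± 0.34 (adjusted p = 0.445) with them.

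**Figure D4:**
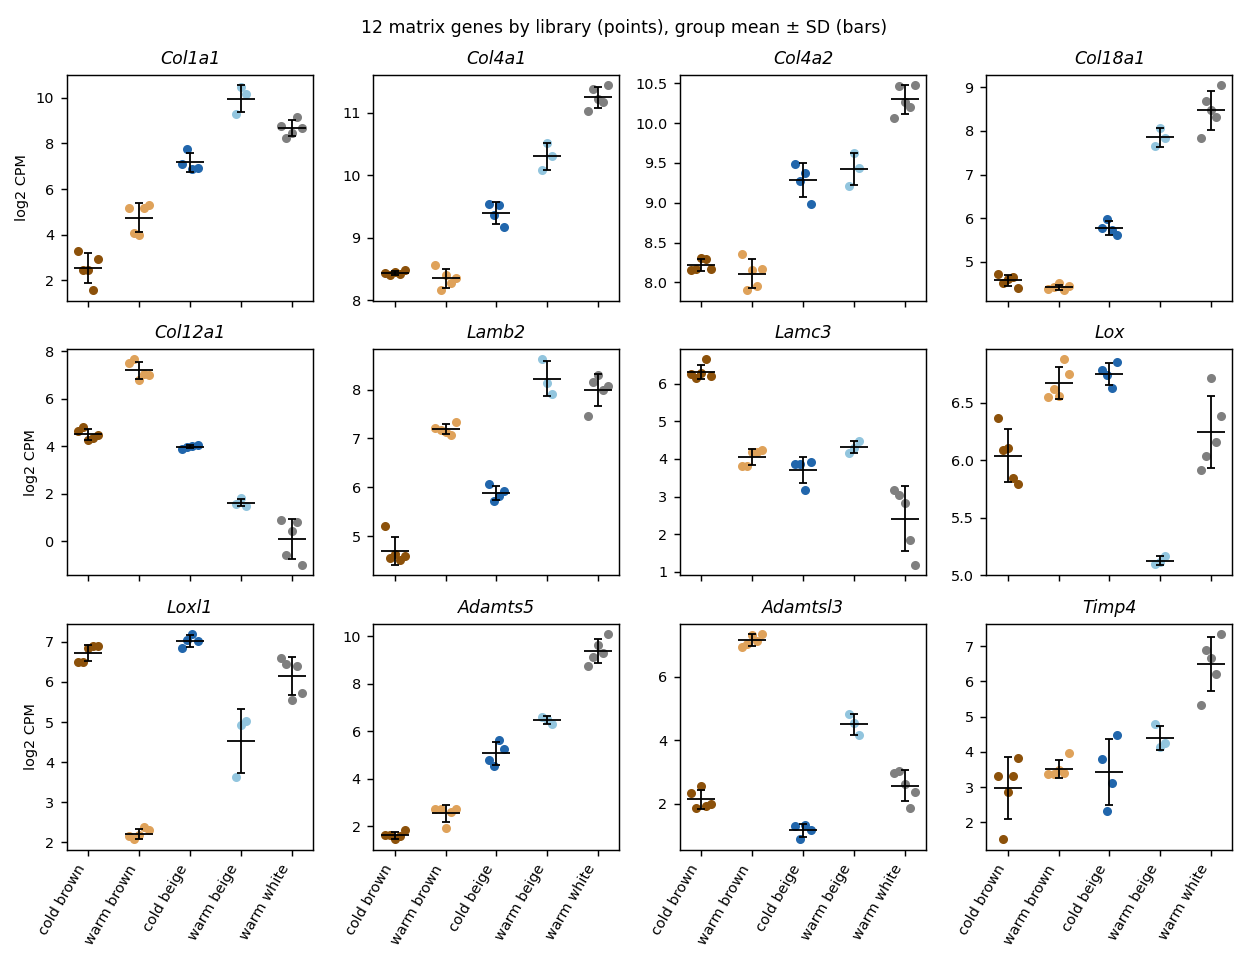
Log2 CPM of 12 matrix genes in each library (points) with the group mean and SD (bars), with the 2 brown groups first and the 3 inguinal groups after them; each panel has its own y axis, which does not start at 0. Col4a1 steps up across the 3 inguinal groups while Col4a2 overlaps between cold and warm beige, Col12a1 and Adamtsl3 peak in warm brown, Lamc3 peaks in cold brown, and Lox is lowest in warm beige (5.10 to 5.17).

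Elastic fibre genes were highest in warm beige. Fbn1, the fibrillin of microfibrils, Fbln2 and Fbln5, fibulins of elastic fibres, were all higher in warm beige than in cold beige (1.31 ± 0.27, 1.67 ± 0.43 and 3.01 ± 0.68) and all higher than in warm white (1.32 ± 0.26, 1.82 ± 0.41 and 1.72 ± 0.65). Of all genes, 36.0% were higher in warm beige than in cold beige and 17% higher than in warm white. Fbn1 had means of 2.95 ± 0.52 in cold brown, 3.87 ± 0.35 in warm brown, 6.03 ± 0.13 in cold beige, 7.34 ± 0.39 in warm beige and 6.02 ± 0.46 in warm white. Fbln5 in warm white spread from 0.72 to 4.46, and its contrast with warm beige was lost without any 1 of 5 libraries (adjusted p = 0.152 without warm beige library 1). Eln, elastin itself, rose by 3.27 ± 0.43 in beige and gave 0.52 ± 0.35 in brown, a difference of 2.75 ± 0.55 (adjusted p = 0.000282).

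Of the 4 crosslinking enzymes, none rose with warming in beige and 2 fell (0% and 50%, against 36.0% and 36.9% of all genes). In brown 2 rose and 2 fell (50% each, against 41.2% and 30.1%). Loxl1 (uc009pwv.2, chromosome 9, 58287723 to 58313212), which acts on elastin, read 6.51, 6.50, 6.85, 6.89 and 6.89 in cold brown and 2.16, 2.07, 2.17, 2.38 and 2.31 in warm brown. It read 6.85, 7.04, 7.20 and 7.02 in cold beige, 3.62, 4.93 and 5.03 in warm beige and 6.59, 6.46, 5.56, 6.40 and 5.72 in warm white. Warm brown lay below every other library, and warm beige library 1 lay well below the other warm beige libraries. Loxl1 changed by -4.51 ± 0.21 in brown (adjusted p = 3.68e-14), the largest fall among the members, and by -2.50 ± 0.26 in beige (adjusted p = 1.17e-08), so that the fall was smaller in beige by 2.01 ± 0.33 (adjusted p = 3.59e-05). Without warm beige library 1 that difference was 2.46.

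Lox, the founding lysyl oxidase, which acts on collagen and elastin, read 6.37, 6.09, 6.11, 5.85 and 5.79 in cold brown and 6.55, 6.62, 6.56, 6.88 and 6.75 in warm brown. It read 6.79, 6.74, 6.63 and 6.86 in cold beige, 5.10, 5.11 and 5.17 in warm beige and 5.92, 6.04, 6.72, 6.16 and 6.39 in warm white. The 3 warm beige libraries were below all others and close to each other. Lox fell with warming in beige (-1.63 ± 0.15, adjusted p = 1.23e-09) and rose in brown (0.63 ± 0.12, adjusted p = 7.8e-05; 0.36, adjusted p = 0.107, within set 1 alone, with 2 libraries a group), a difference of -2.26 ± 0.19 (adjusted p = 2.43e-09). It was also lower in warm beige than in warm white (-1.12 ± 0.14, adjusted p = 1.73e-06), as was Loxl1 (-1.62 ± 0.25). Loxl2 fell in brown (-0.91 ± 0.24), and Loxl4 rose there (1.26 ± 0.44), a call lost without cold brown library 5 (adjusted p = 0.0573). The group in which Lox was lowest, warm beige, was the group with the highest mean of Col1a1 and Col1a2.

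Of 9 metalloproteinases, 4 rose and 1 fell with warming in beige (44.4% and 11.1%, against 36.0% and 36.9% of all genes). In brown 7 rose and 1 fell (77.8% and 11.1%, against 41.2% and 30.1%). Mmp14, a membrane-bound collagenase that also activates Mmp2, had means of -0.09 ± 0.58 in cold brown, 1.85 ± 0.09 in warm brown, 3.68 ± 0.19 in cold beige, 5.00 ± 0.49 in warm beige and 4.10 ± 0.54 in warm white. It rose in beige (1.32 ± 0.31, adjusted p = 0.000583) and brown (1.95 ± 0.25, adjusted p = 4.97e-07), and no cold library of a depot reached a warm one. Mmp2, the gelatinase, rose in brown (1.95 ± 0.39) and gave 0.82 ± 0.47 in beige (adjusted p = 0.123), and with 5 CPM added the brown change had an adjusted p of 0.0857. Mmp11 and Mmp28 rose in both depots, Mmp11 by 1.31 ± 0.37 and 1.41 ± 0.31, Mmp28 by 0.74 ± 0.16 and 0.55 ± 0.13. Mmp11 was also 2.10 ± 0.35 higher in warm beige than in warm white.

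The membrane-linked enzymes Mmp15, Mmp23 and Mmp24 had a more positive change in brown. Mmp15 rose in brown (0.92 ± 0.14) and gave 0.25 ± 0.17 in beige; the difference (-0.67 ± 0.22, adjusted p = 0.0162) was lost without warm beige library 3 (adjusted p = 0.0724). Mmp23 gave -2.22 ± 0.71, lost without warm beige library 1 (adjusted p = 0.0564). Mmp24 gave -0.38 ± 0.16, lost without any of several libraries, among them warm beige library 3 (adjusted p = 0.147). Mmp19 fell in both depots, from 6.55 ± 0.14 to 5.85 ± 0.15 in brown and from 6.68 ± 0.15 to 6.19 ± 0.23 in beige, and was lower in warm beige than in warm white (-0.66 ± 0.11, adjusted p = 8.52e-05). Cold and warm libraries of each depot were apart. Mmp3, stromelysin, was low in cold brown (-3.92 ± 0.92) and 4.07 ± 0.60 higher in cold beige.

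All 11 ADAMTS proteases were higher in beige than in brown at both temperatures on the deposited scale, against 34.7% of all genes in the cold and 35.3% in warm mice. However, Adamts4 turned to -0.14 in the cold after quantile normalization (adjusted p = 0.772). Adamts14, a procollagen-trimming enzyme, had the largest fitted contrast of the members in the cold (6.12 ± 0.84, adjusted p = 1.87e-06), with a mean of -3.86 ± 1.71 in cold brown and 2.26 ± 0.37 in cold beige. It was at the floor in 2 of the 5 cold brown libraries, and with 1 CPM added the difference was 2.40, below that of Col1a1 (4.39). Adamts12 was 4.46 ± 0.24 higher in cold beige and changed with warming by 0.13 ± 0.27 in beige and 0.10 ± 0.23 in brown (adjusted p = 0.685 and 0.708). With warming 5 of the 11 rose in beige (45.5%, against 36.0% of all genes) and 4 in brown (36.4%, against 41.2%), so the rises were near the share of all genes. Falls were fewer, with none in beige (against 36.9%) and 1 in brown (9.09%, against 30.1%). The medians were 1.12 in beige and 0.63 in brown, against 0.03 and 0.13 over all genes. Adamts1 (1.12 ± 0.31) and Adamts4 (1.16 ± 0.42), proteoglycan-cutting enzymes, rose in beige and gave 0.04 ± 0.26 and -0.30 ± 0.35 in brown. The beige rise of Adamts4 was lost without warm beige library 2 or library 3 (adjusted p = 0.132 without library 3). The differences between depots of both genes (1.08 ± 0.41 and 1.46 ± 0.55) were each lost without any 1 of several libraries. Adamts6 rose in brown (0.86 ± 0.32), which turned to -0.06 after quantile normalization, and Adamts7 and Adamts10 passed in neither depot.

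Adamts5 (uc007ztw.1, chromosome 16, 85858157 to 85901125), an aggrecan-cutting enzyme, showed the largest deficit of warm beige against warm white. It read 1.63, 1.61, 1.44, 1.57 and 1.84 in cold brown and 2.71, 2.74, 1.92, 2.58 and 2.71 in warm brown. It read 4.80, 4.55, 5.63 and 5.26 in cold beige, 6.60, 6.52 and 6.30 in warm beige and 8.74, 9.11, 9.61, 9.27 and 10.09 in warm white. The 5 groups stood in steps without overlap, warm white highest. Warm beige differed from warm white by -2.89 ± 0.24 (adjusted p = 6.37e-09), although warming had raised Adamts5 by 1.41 ± 0.26 in beige. Its neighbour Adamts1 was also lower than in warm white (-1.47 ± 0.30, adjusted p = 0.000484), whereas Adamts4, of the same proteoglycanase branch, was 1.23 ± 0.40 higher. The Adamts4 call was lost without any 1 of 3 libraries (adjusted p = 0.143 without warm beige library 3). Fibroblast markers were higher in warm beige than in warm white for 8 of 15 genes and lower for 2 (Gsn and Dpt). Their full sum was lower in warm beige (4230 to 7350 CPM against 9040 to 10700). Without those 2 it was higher (282 to 393 against 112 to 235), an order that follows from leaving out the lower markers. The part of other cells in the Adamts5 contrast was not tested.

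Adamts2 (uc007iso.2, chromosome 11, 50602085 to 50807573), the main procollagen N-propeptidase, read 1.71, 0.50, 0.56, 0.92 and 1.61 in cold brown and 5.29, 4.90, 5.07, 5.09 and 5.48 in warm brown. It read 4.18, 3.71, 3.99 and 4.56 in cold beige, 5.99, 6.46 and 6.05 in warm beige and 6.89, 7.48, 7.69, 7.56 and 7.63 in warm white. All 5 groups were apart, and warm brown stood above cold beige. Adamts2 rose by 4.11 ± 0.22 in brown (adjusted p = 2.14e-13) and 2.06 ± 0.26 in beige (adjusted p = 2.92e-07), a difference of -2.05 ± 0.34 (adjusted p = 3.23e-05). Adamts15 rose more in beige (2.55 ± 0.35 against 1.03 ± 0.29; difference 1.53 ± 0.46, adjusted p = 0.0086), and the difference was 1.83 within set 1. Adamts9 fell slightly in brown (-0.31 ± 0.08) and gave 0.14 ± 0.10 in beige.

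ADAMTS-like proteins resemble these enzymes but have no protease domain. Adamtsl3 (uc009ida.2, chromosome 7, 82335399 to 82614450) rose more with warming than any other member, in brown and, apart from Col6a5 with its values near the floor, in beige. It read 2.34, 1.86, 2.56, 1.94 and 2.00 in cold brown and 6.94, 7.02, 7.32, 7.14 and 7.35 in warm brown. It read 1.29, 0.87, 1.32 and 1.16 in cold beige, 4.82, 4.54 and 4.15 in warm beige and 2.98, 3.02, 2.63, 1.86 and 2.36 in warm white. Warm brown was far above all other groups, warm beige next, and cold beige below all others. The rise was 5.01 ± 0.19 in brown (adjusted p = 1.3e-15) and 3.34 ± 0.23 in beige (adjusted p = 1.47e-11). The larger brown rise (-1.67 ± 0.30, adjusted p = 8.53e-05) was -0.65 after quantile normalization (adjusted p = 0.119). Brown exceeded beige at both temperatures (beige minus brown -0.98 ± 0.20 in the cold and -2.65 ± 0.22 in warm mice). Fibroblast markers were higher in beige at both temperatures (15 of 15), and the part of other cells in the Adamtsl3 values was not tested.

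Its relatives differed. Adamtsl4, which binds fibrillin, rose by 1.96 ± 0.23 in beige and 2.21 ± 0.19 in brown and was lower in warm beige than in warm white (-0.85 ± 0.22). Adamtsl5 fell in beige (-0.98 ± 0.35), a call lost without warm beige library 1 or library 2 (adjusted p = 0.061 without library 1). Adamtsl1 was 3.83 ± 0.44 higher in cold beige than in cold brown and passed with warming in neither depot (1.09 ± 0.50 and 0.79 ± 0.41).

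The 2 measured inhibitors parted between warm beige and warm white. Timp4 (uc009dip.1, chromosome 6, 115244444 to 115252205), the inhibitor known for its expression in adipose tissue, read 3.31, 1.51, 2.85, 3.31 and 3.82 in cold brown and 3.37, 3.37, 3.49, 3.39 and 3.96 in warm brown. It read 3.80, 2.31, 3.12 and 4.49 in cold beige, 4.78, 4.13 and 4.25 in warm beige and 5.33, 6.88, 6.66, 6.20 and 7.35 in warm white. Cold brown, warm brown and cold beige overlapped, warm beige overlapped only cold beige, and warm white stood above them all. Warm beige was lower than warm white, with a difference of -2.10 ± 0.46 (adjusted p = 0.000935; -2.27 within set 1), and no warming effect passed (0.96 ± 0.48 in beige, 0.56 ± 0.40 in brown). Timp2, a partner of Mmp14 in activating Mmp2, was 1.51 ± 0.31 higher in warm beige than in warm white (adjusted p = 0.000578), rose with warming by 1.18 ± 0.33 in beige and 1.18 ± 0.27 in brown, and was 3.14 ± 0.29 higher in cold beige than in cold brown.

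**Figure D5:**
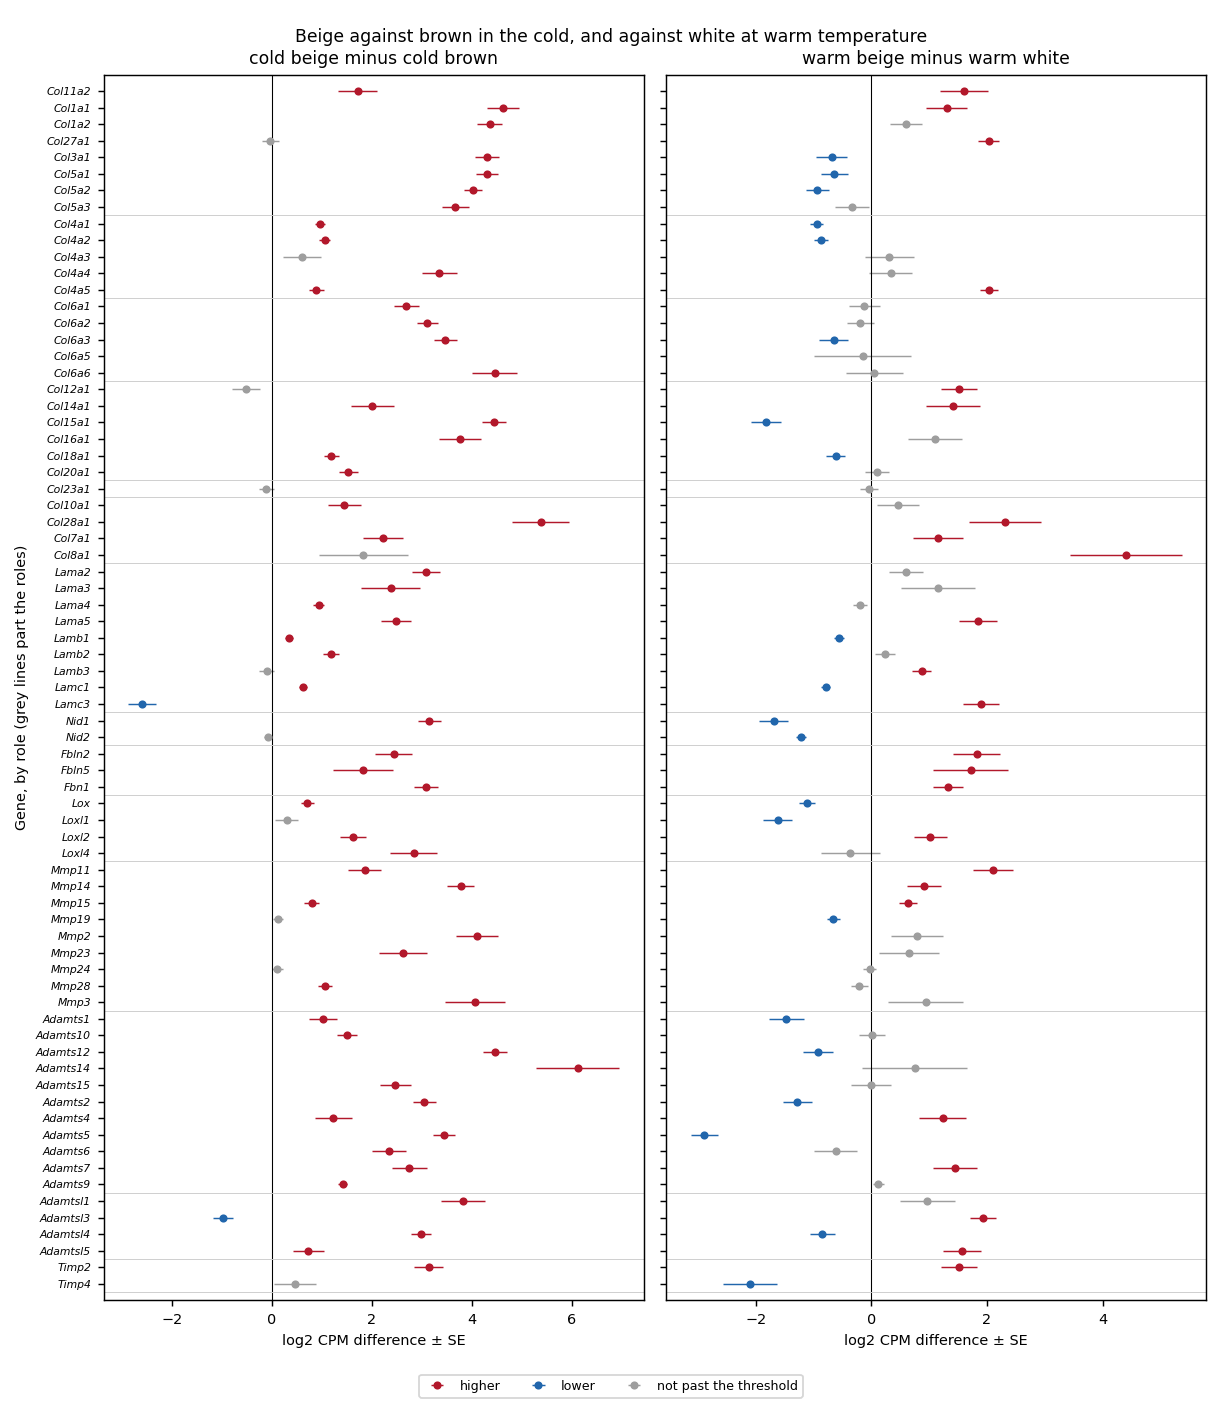
Difference of log2 CPM with its limma standard error for 73 matrix genes by role, for cold beige minus cold brown (left) and warm beige minus warm white (right); red and blue genes passed the threshold, and Col6a5 is left out on the left because every cold brown library was at the floor. Nearly all genes lie to the right on the left panel, up to 6.12 for Adamts14, which has 2 cold brown libraries at the floor, while the right panel splits, with Adamts5 at -2.89 and Col8a1 at 4.40.

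Other matrix genes were counted in lists written from textbook knowledge. Of 24 measured genes that make and process collagen, 13 rose and 4 fell with warming in beige (54.2% and 16.7%, against 36.0% and 36.9% of all genes). In brown 15 rose and 3 fell (62.5% and 12.5%, against 41.2% and 30.1%). The change was more positive in beige for 5 and in brown for 4 (20.8% and 16.7%, against 14.8% and 32.4%). In that order the medians were 0.63, 0.73 and 0.04 log2 units (0.03, 0.13 and -0.17 over all genes). Pcolce, which speeds the trimming of procollagen, fell in beige (-2.58 ± 0.25, adjusted p = 5.2e-09) and rose in brown (0.99 ± 0.21, adjusted p = 0.000217), a difference of -3.57 ± 0.33 (adjusted p = 1.01e-08). Serpinh1, the collagen chaperone, fell in both depots (-1.05 ± 0.10 and -0.77 ± 0.09), and P4hb, a subunit of the prolyl hydroxylase that modifies collagen, rose in both (1.50 ± 0.09 and 0.83 ± 0.08). P4ha1, the catalytic subunit, fell in brown (-1.15 ± 0.11) and gave 0.06 ± 0.14 in beige. Against warm white, 5 of the 24 were higher in warm beige and 10 lower (20.8% and 41.7%, against 17% and 22.4% of all genes). Beige exceeded brown for 11 in the cold and 12 in warm mice (45.8% and 50%, against 34.7% and 35.3%). It was lower for 4 and 7 (16.7% and 29.2%, against 27.2% and 40.1%).

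Of 41 proteoglycans and glycoproteins, 25 rose and 2 fell in beige (61% and 4.88%, against 36.0% and 36.9% of all genes). In brown 23 rose and 5 fell (56.1% and 12.2%, against 41.2% and 30.1%). The change was more positive in beige for 6 and in brown for 10 (14.6% and 24.4%, against 14.8% and 32.4%), and the medians were 0.97, 0.87 and 0.13. In the cold 31 were higher and 1 lower in beige than in brown (75.6% and 2.44%, against 34.7% and 27.2%). In warm mice it was 31 and 3 (75.6% and 7.32%, against 35.3% and 40.1%). Against warm white 18 were higher and 10 lower (43.9% and 24.4%, against 17% and 22.4%). Npnt, an integrin ligand of basement membranes, fell in both depots (-4.11 ± 0.86 and -4.88 ± 0.71). Sparc, a collagen-binding protein made by adipocytes, fell in brown (-1.10 ± 0.10) and gave 0.20 ± 0.12 in beige, a difference of 1.31 ± 0.16 (adjusted p = 5.97e-07). Hspg2, the basement membrane proteoglycan perlecan, rose in brown (1.14 ± 0.10) and gave 0.18 ± 0.12 in beige, a difference of -0.96 ± 0.15 (adjusted p = 1.82e-05).

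Of 23 matrix receptors, 13 rose and 4 fell in beige (56.5% and 17.4%, against 36.0% and 36.9% of all genes). In brown 16 rose and 4 fell (69.6% and 17.4%, against 41.2% and 30.1%). The change was more positive in beige for 2 and in brown for 7 (8.7% and 30.4%, against 14.8% and 32.4%), and the medians were 0.96, 1.14 and -0.15. Itga1, a collagen receptor subunit, fell in beige (-0.83 ± 0.11) and rose in brown (0.63 ± 0.09), a difference of -1.46 ± 0.14 (adjusted p = 1.99e-08). The laminin receptor Dag1 fell in both (-1.26 ± 0.08 and -0.68 ± 0.07). Receptors were higher in beige than in brown for 15 genes and lower for 1 in the cold (65.2% and 4.35%, against 34.7% and 27.2%). In warm mice it was 16 and 6 (69.6% and 26.1%, against 35.3% and 40.1%), and against warm white 8 and 5 (34.8% and 21.7%, against 17% and 22.4%).

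Of 21 other matrix proteases and inhibitors, 8 rose and 5 fell in beige (38.1% and 23.8%, against 36.0% and 36.9% of all genes). In brown 10 rose and 10 fell (47.6% each, against 41.2% and 30.1%), so the rises were near the share of all genes. The change was more positive in beige for 5 and in brown for 4 (23.8% and 19%, against 14.8% and 32.4%), and the medians were 0.31, -0.18 and -0.12. Adam12 fell in both depots (-3.15 ± 0.30 and -2.48 ± 0.24), Serpine2, a serine protease inhibitor, rose in both (2.59 ± 0.23 and 2.36 ± 0.19), and Htra3 rose in beige and fell in brown (1.47 ± 0.18 and -0.44 ± 0.15). Of the 21, 12 were higher and 4 lower in cold beige than in cold brown (57.1% and 19%, against 34.7% and 27.2%). In warm beige against warm brown it was 15 and 4 (71.4% and 19%, against 35.3% and 40.1%). Against warm white it was 4 and 5 (19% and 23.8%), near the shares of all genes (17% and 22.4%).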

How the data were processed

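Ribosome-bound mRNA was measured in 22 libraries of 5 groups, and 36 chromatin samples of the series were not analysed here. The authors deposited log2 CPM for 11603 genes, and the tools named in the submitters' processing notes, without versions, are edgeR, featureCounts, HISAT2 and Picard, with the mm10 build. Whether strand was used in counting is not stated. The values split the libraries into sets of 10 and 12, read from the deposited values and not from a label: after joining, the largest coefficient of set on a gene was 0.005, and 1.9 under the other way of joining. With almost no mean difference between the sets left in the values, set as a term could hardly move an estimate. The fit made no allowance for any adjustment for set before deposit. If there was one, the residual degrees of freedom are too many. Values at or below -5 were treated as the floor. Depth is unknown; back-transformed values summed to between 0.859 and 1.1 of the nominal CPM total per library, so no counting interval is given.

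A single model over all 5 groups was fitted to the deposited log2 values with limma 3.58.1 (trend on mean level, 17 residual degrees of freedom) in R 4.3.3, with Benjamini-Hochberg adjustment over all 11603 genes and a threshold of 0.05. The filter of at least 1 CPM in at least 3 libraries removed no gene. The procedure was tested on simulated data. Alternatives were other scalings, added CPM, filters, blocks, single sets and leaving out each library. Leaving out cold brown libraries 1 and 5, and leaving Gsn, Dpt and Mb out of marker sums, was added after seeing the data.

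Members and lists were chosen with earlier results of these data known. Described in most detail are core members and the 5 largest changes in each direction; the genes given library by library, and the non-member matrix genes named, were chosen after their values were seen. Coordinates are those of RefSeq on GRCm38.p6, matched by symbol. The values of 1 member, which is counted among the 75, are not reported here.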

Additional observations from a re-analysis of the deposited data

Results flagged for a closer look

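Single libraries stood apart from the others of their group for some members. Col3a1 was 11.24 log2 CPM in warm white library 1 (others 11.52 to 11.61) and Adamts2 was 6.89 in the same library (others 7.48 to 7.69). Lamb2 was 5.21 in cold brown library 1 (others 4.51 to 4.63), which was also high in endothelial, fibroblast and pericyte markers. Lamb3 was 2.83 in warm white library 3 (others 2.13 to 2.27). Lamc3 was 6.65 in cold brown library 4 (others 6.15 to 6.28) and 3.18 in cold beige library 3 (others 3.87 to 3.92). Adamts5 was 1.92 in warm brown library 3 (others 2.58 to 2.74), and Timp4 was 3.96 in warm brown library 5 (others 3.37 to 3.49). These were 8 of 96 groups tested, and chance gives about 1 in 20.

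The warming effects in beige and brown differed past the threshold, by the interaction in limma, for 24 members, of which 23 are given here. Beige minus brown, the difference was -5.05 for Col12a1, -3.10 for Col28a1, -2.31 for Col6a6, -2.26 for Lox, -2.22 for Mmp23, -2.05 for Adamts2, -1.67 for Adamtsl3, -0.77 for Col4a5, -0.67 for Mmp15 and -0.38 for Mmp24. On the other side it was 0.45 for Adamts9, 0.50 for Lamc1, 0.95 for Loxl2, 0.99 for Col4a1, 1.06 for Col6a1, 1.08 for Adamts1, 1.12 for Col5a3 and 1.46 for Adamts4. It was 1.53 for Adamts15, 1.62 for Col7a1, 2.01 for Loxl1, 2.25 for Col18a1 and 2.87 for Lamc3. For 9 of these members (Adamts1, Adamts4, Col5a3, Col6a1, Col7a1, Loxl2, Mmp15, Mmp23 and Mmp24) the call was lost when at least 1 single library was left out. Loxl2 lost its call without any 1 of 13 libraries, and gave 0.77 without warm beige library 2 (adjusted p = 0.138). Col7a1 lost its call without any 1 of 4, and gave 1.28 without warm beige library 3 (adjusted p = 0.0979).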

How the results depend on the processing

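Over 36 alternatives, 15545 values of single members kept their direction and side of the threshold, 365 lost the call, 229 gained one and 7 turned. The turned values were the difference of Col6a6 (0.42 with 1 CPM and 0.50 with 5 CPM added) and of Col28a1 (0.20 and 0.27), brown warming of Adamts6 (-0.06, quantile normalization) and Loxl4 (-0.07, set 1 alone), and cold beige minus cold brown of Adamts4 (-0.14, quantile normalization). With 5 CPM added 37 members differed between the warming effects, 29 more positive in beige, and over all genes 2281 were more positive in beige and 3639 in brown. Quantile normalization gave 32 members more positive in beige and 3 in brown, with 14 falling in brown and 5 lower in cold beige than in cold brown. Over all genes it gave 3098 and 3139, with 3815 falling in brown and 3678 lower in cold beige than in cold brown. Set 1 alone gave 33 members changed in brown (28 higher, 5 lower), 10 differing between depots (5 and 5) and 21 between warm beige and warm white (13 and 8); with 1 warm beige library in set 1, its spread is taken from the other groups, and the last 2 counts say little of stability. Set 2 alone gave 9 members more positive in beige and 10 in brown (1566 and 3263 of all genes). Against warm white it gave 13 higher and 19 lower (1929 and 1887 of all genes). Both splits thus lay on the other side from the main fit. Leaving out 1 library gave 9 to 15 members more positive in beige (9 without warm beige 2 or without warm beige 3). Across single left-out libraries 47 to 53 members passed in beige warming, 50 to 54 in brown, 19 to 25 in the difference and 38 to 46 against warm white. The same ranges were not counted over all genes. Scaling to totals without the 20 most abundant genes shifted the median of all genes by up to 0.22.

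Replicate numbers did not meet the bar for pairing (every correlation over 0.1) in any comparison. By library number, same-numbered beige and brown libraries correlated at 0.07 to 0.35 in the cold (best with their own number in 2 of 4) and 0.07 to 0.20 in warm mice (3 of 3), a hint from the data and not from the design; the other comparisons, and the numbers of the titles, ranged from -0.15 to 0.32. With the numbers of the titles as a replicate block 44 members rose and 9 fell in beige, 43 and 8 in brown, 13 and 10 in the difference, 23 and 18 against warm white, 60 and 2 in the cold depot contrast and 60 and 4 in the warm one. With library numbers as the block 43 and 8, 43 and 8, 13 and 9, 22 and 20, 61 and 2, and 59 and 3 passed. Over all genes, in the same order, the title numbers gave 4116 and 4236, 4774 and 3493, and 1641 and 3690. For the other comparisons they gave 1824 and 2390, 3984 and 3096, and 4041 and 4634. Library numbers gave 4106 and 4226, 4748 and 3448, and 1656 and 3649 over all genes. They then gave 1901 and 2372, 3887 and 2998, and 4026 and 4562. The 3 warm beige libraries and the unknown depth limit what could be detected, and sets without a label cannot be tied to a cause.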
